A study of Mus musculus with 5 samples.

Results

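Xiap and Pdcd10 are 2 of the 1457 genes whose values were analysed here in whole mouse pancreas, and they were taken by name from the per-library values. They were put together as cell survival genes, and their values in the knockout and wild-type caerulein libraries and in saline were known when they were chosen, so every difference given for them below is a description and not a test. Female C57BL/6 mice aged 8 weeks were either wild type or miR-21-/-, that is, lacking the microRNA miR-21, with no further detail of the deletion in the labels. Caerulein is an analogue of cholecystokinin that causes acute pancreatitis; it was injected into the abdomen at 50 µg/kg, repeatedly, and the pancreas was collected 24 h from the first dose. The groups were wild type given saline (1 library), wild type given caerulein (2 libraries, replicates 1 and 2) and miR-21-/- given caerulein (2 libraries, replicates 1 and 3). There was thus no knockout library without caerulein. Whether the libraries came from different mice is not stated, so the spread between them may be technical.

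XIAP, the X-linked inhibitor of apoptosis protein, binds and blocks caspases, the proteases that carry out apoptosis, and through its RING domain marks bound proteins for degradation. It also takes part in NF-κB signalling downstream of NOD receptors. PDCD10, also called CCM3, is a small adaptor protein that binds the GCKIII kinases and the striatins of the STRIPAK phosphatase complex, and its loss in endothelium causes cerebral cavernous malformations. In caerulein pancreatitis acinar cells die by both necrosis and apoptosis, and the balance between them is known to depend on caspase activity. A microRNA such as miR-21 lowers messages that pair with its seed, the stretch of bases near its 5′ end.

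Because the comparison turns on the loss of miR-21, the mature miR-21a-5p sequence (RefSeq, GRCm38.p6, minus strand, chr11:86584120-86584141) is shown first, with the seed, bases 2 to 8, in capitals. Beneath it are the places where the 3′ UTRs of the members hold the letters ATAAGCT, the complement of that seed, in capitals.
miR-21a-5p: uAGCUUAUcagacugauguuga
Xiap: tgccttttgcATAAGCTtaacaaatgg
Pdcd10: ctaggccctaATAAGCTttgcacattg

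The 3′ UTRs were taken from the mouse transcripts of GENCODE M21, and the search covered the transcript strand. The longest 3′ UTR of Xiap (4672 bases) held 1 match, at bases 314 to 320 after the stop codon. The other 3 complete coding transcripts of Xiap hold the same match in a 3′ UTR of the same length. The longest 3′ UTR of Pdcd10 (1030 bases) also held 1 match, at bases 773 to 779. A shorter Pdcd10 transcript has a 3′ UTR of 59 bases without it. Neither match was followed by an A, the context of the longer letters ATAAGCTA.

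Over all 21010 genes with a 3′ UTR, 7.18% held ATAAGCT in their longest one, and among the 1362 genes of the files that had one the share was 8.22%. Longer 3′ UTRs hold any such letters more often. Of 991 genes with a 3′ UTR within 1.2-fold of that of Xiap in length, 24.3% held a match, and of 2478 genes within 1.2-fold of Pdcd10, 3.87% did. A match is a run of letters and not evidence of binding, and whether miR-21 acts on either member was not tested.

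**Figure D1:**
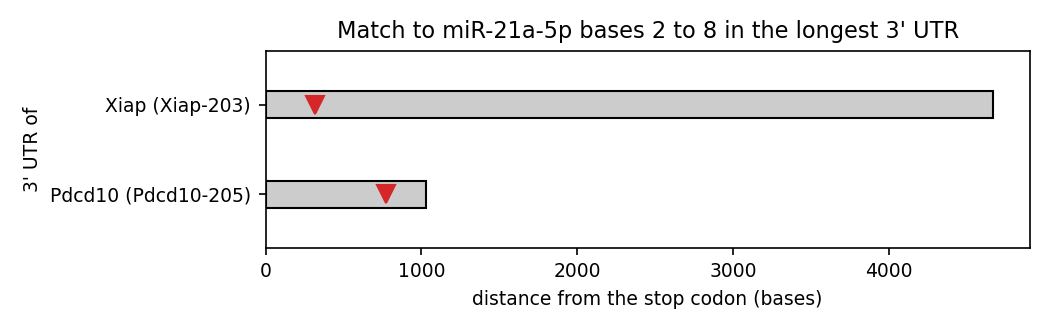
Bars show the longest 3′ UTR of Xiap (4672 bases) and of Pdcd10 (1030 bases), with distance from the stop codon in bases on the horizontal axis. Triangles mark the 1 match to bases 2 to 8 of miR-21a-5p in each, near the start of the Xiap 3′ UTR and in the later part of that of Pdcd10.

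The deposited files give 1 value for each gene and library, in a unit that is not stated, and no read depth could be recovered from them. The lowest value, 0.01, appears to stand for no measured signal, and no fold is given against it. It was listed for 540 genes (37.1%) in saline and for 31 to 89 genes in the caerulein libraries, with the highest number in wild-type replicate 2. The files hold a chosen part of the transcriptome: genes stand in falling order of the wild-type caerulein mean over saline, and the smallest of their largest departures from saline is 2.528-fold. Of 16 acinar markers only Prss1 and Prss3 were among the 1457 genes, so the tissue could not be checked against the other acinar enzymes. The deletion of miR-21 was not checked here, as microRNA values were not analysed.

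Xiap was listed at 2.3 in saline. It stood at 5.6 and 5.01 after caerulein in wild-type replicates 1 and 2, and at 0.01 in both knockout caerulein libraries. As deposited, the wild-type caerulein libraries were close to each other (mean 5.3 ± 0.417, SD, n = 2) and both lay above saline, by 2.43-fold and 2.18-fold. They were less close, at 4.15 and 6.94, once the caerulein libraries were scaled by their median ratio. Both knockout libraries lay at the lowest value, below saline and below every wild-type library, so the genotypes did not overlap. Since the tissue was sequenced in bulk, a smaller share of cells that carry a transcript and less transcript in each cell cannot be told apart.

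Pdcd10 was listed at 1.14 in saline. It stood at 3.46 and 0.01 after caerulein in wild-type replicates 1 and 2, and at 18.3 and 7.6 in knockout caerulein replicates 1 and 3. Both knockout libraries were higher than every wild-type library, with a mean of 12.9 ± 7.57 (SD, n = 2). They stood 16.1-fold and 6.67-fold above saline and 5.29-fold and 2.2-fold above wild-type caerulein replicate 1. The wild-type caerulein libraries fell on either side of saline, replicate 1 at 3.04-fold of it and replicate 2 at the lowest value.

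**Figure D2:**
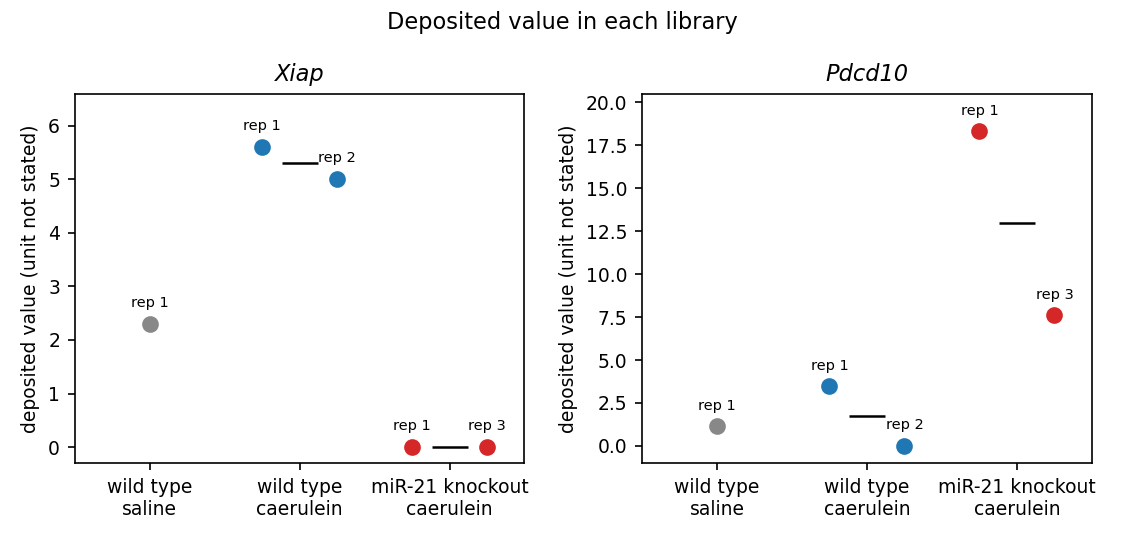
Each point is the deposited value of Xiap (left) or Pdcd10 (right) in 1 library, in a unit that is not stated, and the black line is the mean of a group with 2 libraries. Xiap lies at 5.6 and 5.01 in wild-type caerulein and at 0.01 in both knockout libraries, while Pdcd10 lies at 18.3 and 7.6 in the knockout and at 3.46 and 0.01 in the wild type.

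The place of both members among the genes of these files differed between libraries. The highest value of Xiap in any library, 5.6, was lower than that of all other genes but 1, Mcc, while 825 of the 1457 genes had a highest value below that of Pdcd10, 18.3. In saline 80.9% of the genes had a lower value than Xiap, against 9.27% and 36.2% after caerulein in wild-type replicates 1 and 2. Xiap was thus higher in caerulein-treated wild type than in saline, but by less than most genes of the files, and its place in their order dropped. It stood 1374th of 1457 in the order of wild-type caerulein mean over saline, and Pdcd10 stood 1399th. For Pdcd10 the genes with a lower value were 64.6% in saline and 5.35% in wild-type caerulein replicate 1, then 73.1% and 35.1% in knockout replicates 1 and 3.

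The value 0.01 in both knockout libraries was uncommon for a gene with signal in both wild-type caerulein libraries. It occurred for 3 of 1457 genes, Kpna2, Lrrc43 and Xiap, a pattern counted after the values were seen. Kpna2, a nuclear import receptor, was also at 0.01 in saline and at 22.92 and 7.79 in wild-type caerulein. Lrrc43 was at 0.42 and 10.73, so that Xiap had the most even wild-type values of the 3 as deposited, without scaling of the libraries. Among 361 genes whose wild-type caerulein mean lay within 1.5-fold of that of Xiap, 5 had 1 knockout library at 0.01 and 2, Lrrc43 and Xiap, had both.

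On the deposited scale Xiap was also the 1 gene of 1457 with both wild-type caerulein libraries above saline and both knockout libraries below it. This arrangement, too, was counted after the values were seen, and it rests on 1 saline library. The opposite arrangement was likewise found for 1 gene, Pcsk2, a prohormone convertase of islets, with 15.59 in saline, 9.7 and 9.73 in wild-type caerulein and 40.83 and 21.71 in the knockout. For 1252 genes all 4 caerulein libraries lay above saline.

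The 0.01 of Pdcd10 in wild-type replicate 2 had more company. In that library alone among the caerulein libraries 61 genes were at 0.01, against 4 in wild-type replicate 1, 8 in knockout replicate 1 and 2 in knockout replicate 3. Of the 61, Anxa10, Siah1a, Atp5f1 and Pdcd10 were at 7.6 or more in both knockout libraries, a limit set at the lower knockout value of Pdcd10. Among 561 genes with a knockout mean within 1.5-fold of that of Pdcd10, 9, Pdcd10 included, were at 0.01 in wild-type replicate 2, and 7 lay below 3.46 in wild-type replicate 1.

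For the comparison of genotypes after caerulein, limma was fitted to log2(value + 1) of the 1429 genes that reached 1 in 2 or more libraries. Both members passed this filter, Xiap through wild-type libraries alone. At the alternative minimum of 5, Xiap passed only through wild-type caerulein and Pdcd10 only through knockout caerulein, the group where each was high. On the log2(value + 1) scale the knockout minus wild-type difference was −2.64 for Xiap (SE 2.31, 95% interval −7.16 to 1.88) and 2.60 for Pdcd10 (SE 1.40, 95% interval −0.14 to 5.34). In the order of all 1429 differences Xiap was the second lowest, after Kpna2 at −3.84, and Pdcd10 the second highest, after Prss1, a trypsinogen gene, at 3.30. The next differences were −2.23 for Srsf2, a splicing factor, on the lower side and 2.58 for Hnrnph1, a splicing regulator, on the higher side, so Pdcd10 and Hnrnph1 differ by far less than their errors.

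Neither member was called (0 of 2), and over all genes 0% were called in this comparison (adjusted p under 0.05 by limma; 7 of 1429 at an unadjusted p under 0.05). The groups did not overlap for both members, against 9.31% of genes tested, 4.76% higher and 4.55% lower in the knockout. These values chose the members, so nothing is read from that count. With 2 libraries against 2 an exact permutation test cannot give a two-sided p below 0.333.

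The standard error of Xiap came from limma's variance trend and not from its own libraries, whose SD on the log2 scale was 0.10 in wild-type and 0.00 in knockout caerulein. That of Pdcd10, with an SD of 1.52 and 0.82, also came almost wholly from the trend. Neither interval therefore measures the spread between a gene's own libraries. The trend gave Xiap an SE above the median of 0.87 for all genes tested. With 1 prior variance for all genes, a setting chosen after seeing the data, the SE of Xiap was 1.05 and that of Pdcd10 1.05, and limma again called 0 genes. Values at 0.01 make the size of both differences depend on the pseudocount: with 0.1 in place of 1 it was −5.62 for Xiap and 4.25 for Pdcd10. For Pdcd10 it also depended on single libraries, at 3.67 without wild-type replicate 1 and 1.53 without wild-type replicate 2.

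**Figure D3:**
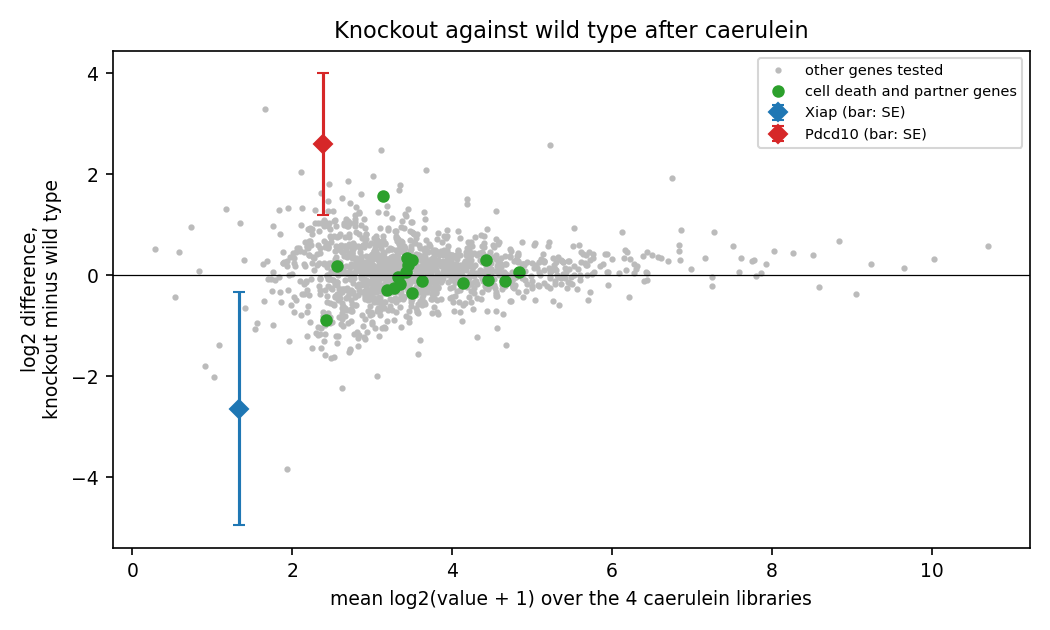
Each point is 1 of 1429 genes, with the mean log2(value + 1) over the 4 caerulein libraries on the horizontal axis and the knockout minus wild-type log2 difference on the vertical axis. Diamonds with bars (SE) mark Xiap at −2.64 and Pdcd10 at 2.60, outside most of the other genes, and green points mark 18 cell death and partner genes, whose median difference was −0.06.

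The caerulein libraries fell into similar pairs that each join both genotypes. Wild-type replicate 1 resembled knockout replicate 3 (Spearman's rho 0.73 across the 1429 genes, which are no replicates of each other), and wild-type replicate 2 resembled knockout replicate 1 (rho 0.74). The coefficient was 0.35 within the wild type, 0.45 within the knockout, 0.45 between replicate 1 of each genotype and 0.42 for the remaining pair, and no batch is named in the labels. Within each of these similar pairs Xiap was lower in the knockout (5.6 against 0.01 and 5.01 against 0.01) and Pdcd10 was higher (3.46 against 7.6 and 0.01 against 18.3). Because the genotypes did not overlap for either gene, any other pairing would give the same directions, so nothing is read from this. The highest and the lowest Pdcd10 value among the caerulein libraries therefore belong to 1 such pair. Scaling the caerulein libraries by their median ratio gave 4.15 and 6.94 for Xiap in the wild type, and 2.56 and 0.0138 for Pdcd10 in the wild type against 16.3 and 7.78 in the knockout, with the same order of groups.

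Of the cell type marker lists, the islet list was the 1 whose summed value did not overlap between the genotypes after caerulein. Of its 9 markers 2 were measured, Pcsk2 and Slc2a2. The list summed to 25.91 in saline, 10.71 and 9.74 in wild-type caerulein and 41.96 and 26.63 in the knockout. Relative to saline the 2 markers disagreed in the knockout. Pcsk2 went up there, from 15.59 to 40.83 and 21.71. Slc2a2 dropped from 10.32 in every caerulein library, to 1.01 and 0.01 (wild type) and to 1.13 and 4.92 (knockout). Each marker on its own was higher in both knockout libraries than in both wild-type caerulein libraries. The hormone genes that define islet cells were not analysed here, and the part of islet content in the Xiap and Pdcd10 values was not tested. The summed values of the acinar, ductal, macrophage, neutrophil, lymphocyte, endothelial, stellate and erythroid lists overlapped between the genotypes, with 1 to 4 markers measured in each. The acinar sum followed Prss3, at 384.9 and 6.97 in wild-type caerulein and 150.18 and 289.84 in the knockout. Prss1 did not overlap, at 0.01 in both wild-type caerulein libraries and 6.5 and 12.28 in the knockout. The part of acinar content in the member values was not tested. Vwf, the measured endothelial marker of 10 listed, was 2.08 in saline, 10.15 and 22.93 in wild-type caerulein and 27.77 and 15.25 in the knockout.

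Both genes have processed copies elsewhere in the genome between which short reads could be divided, and how such reads were counted is not stated in the labels. The Pdcd10 transcript matched the pseudogene Gm14253 at 99.4% identity over 639 bases. The Xiap transcript matched Gm17791 at 91.8% over 1504 bases and 2 shorter pseudogenes, Gm29085 and Gm29086, at 89.6% over 231 bases and 89.9% over 227 bases. None of these pseudogenes is among the 1457 genes, and how much they took from the values was not tested.

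Against saline, the difference for wild-type caerulein was 0.93 for Xiap (SE 2.83) and −0.01 for Pdcd10 (SE 1.71) on the log2 scale. Neither was called, where 57.3% of the genes tested were, all of them higher. Both wild-type caerulein values of Xiap lay above the 1 saline value, as for 89.2% of genes; the saline value lay outside the wild-type caerulein values for 90.2%. For knockout caerulein against the same saline library the difference was −1.71 for Xiap (SE 2.83) and 2.59 for Pdcd10 (SE 1.71); again 0 of 2 were called, against 60.4% of genes tested (60.3% higher and 0.14% lower). Xiap had the eighth lowest of these 1429 differences, and both of its knockout values lay below saline, as for 1.05% of genes, while Pdcd10 lay above saline in both knockout libraries, as for 94.2%; the groups did not overlap for both members and for 95.2% of genes. Quantile normalization, which scales saline to the other libraries and took the median log2 difference of all genes from 2.71 (wild type) and 2.80 (knockout) to 0.01 in each, turned Xiap in the wild type to −2.02 and Pdcd10 in the knockout to −0.32, and moved Pdcd10 in the wild type to −2.42 and Xiap in the knockout to −3.95. The genes it called, 12 in the wild type and 11 in the knockout, were all lower than saline. For Pdcd10 in the wild type the difference was 1.06 without wild-type replicate 2, and for Xiap in the knockout it was −4.45 with a pseudocount of 0.1. The comparisons share the saline library, which has no replicate, and the genes of the files appear to have been chosen for their difference from it.

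The call for Pdcd10 in the knockout against saline depended on the libraries that set the spread. Its log2 difference of 2.59 had a limma adjusted p = 0.1686 with all 5 libraries, where 863 of 1429 genes were called. When only the 2 groups compared were fitted, the limma adjusted p was 0.02279 and 1053 of 1429 genes were called. The number of calls thus rose over all genes, and nothing particular to Pdcd10 is read from its call. It was 0.02486 without wild-type replicate 1 and 0.01338 without wild-type replicate 2, while without knockout replicate 1 it was 0.6296 (difference 2.01) and without knockout replicate 3 it was 0.4106 (difference 3.17).

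The other genes of these pathways were described from 9 lists of 142 symbols, of which 18 besides the 2 members were among the analysed genes; the lists were written with earlier results of these data known. Here and below, a gene said to have risen or fallen in a comparison with saline is one that limma called. After caerulein in the wild type 15 of the 18 rose and 0 fell (57.3% of all genes tested rose). All 18 had a difference above 0, as had 1392 of the 1429 genes tested. Their median was 2.77 on the log2 scale and that of all genes 2.71. In the knockout 16 of the 18 rose against saline and 0 fell (60.3% of all genes rose), with a median of 3.03 against 2.80. Between the genotypes 0 of the 18 were called and 8 were above 0, with a median of −0.06 against 0.10 for all genes. With quantile normalization both counts were 0, where 12 and 11 of all 1429 genes tested were called. With a caerulein library left out, the list counts fell in the same fits in which the number called over all genes fell. Nothing particular to these lists is read from that. As given above, Xiap and Pdcd10 passed in neither comparison with saline.

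Among the caspases and the genes of the apoptosome, Casp8, the initiator caspase of death receptors, was 0.01 in saline, 19.31 and 37.41 in wild-type caerulein and 46.14 and 17.26 in the knockout, and it rose in both comparisons with saline. Dffa, the inhibitor of the nuclease that cuts DNA in apoptosis, rose from 0.01 to 8.02 and 11.25 in the wild type and to 12.27 and 8.01 in the knockout. These were the 2 measured of the 14 genes in this list, and the caspases that XIAP is known to bind were not among them. The genotypes overlapped for both.

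Birc5, or survivin, a relative of XIAP that acts mainly in cell division, was the 1 measured of 18 genes in the list of the inhibitor of apoptosis family and XIAP's binding partners. It rose from 0.01 to 10.29 and 13.48 in the wild type and to 9.57 and 8.44 in the knockout. The knockout libraries lay below the wild-type ones, as for Xiap, but by −0.36 on the log2 scale (SE 0.84). Rela, the p65 subunit of NF-κB and the 1 measured of 14 signalling partners, rose from 0.56 to 8.25 and 10.13 in the wild type and to 17.64 and 6.35 in the knockout.

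In the BCL2 family 4 of 23 genes were measured, and all 4 rose in both comparisons with saline. Of all genes tested 57.3% rose in the wild type and 60.3% in the knockout. Bak1, which permeabilizes the mitochondrial outer membrane, was 1.18 in saline, 16.17 and 29.09 in wild-type caerulein and 26.02 and 15.56 in the knockout. Bnip3l, a mitophagy receptor, rose from 1.87 to 24.67 and 13.39 and to 20.21 and 25.95. Bcl2a1b, a pro-survival member of white blood cells, and Bik, a pro-apoptotic member, differed between the genotypes by −0.12 (SE 0.82) and −0.17 (SE 0.83) on the log2 scale. Bcl2a1b has near-identical copies, so its value is uncertain.

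Of 15 death receptor and necroptosis genes 2 were measured, and both rose in both comparisons with saline (57.3% and 60.3% of all genes rose). Cflar, the caspase-8 inhibitor c-FLIP, was 0.83 in saline, 12.43 and 6.68 in the wild type and 6.8 and 11.63 in the knockout. Tnfrsf21, death receptor 6, was 0.18, then 11.87 and 6.97, and 15.55 and 8.49. Acin1, a nuclear protein cleaved in apoptosis, rose from 0.45 to 17.01 and 4.64 in the wild type and to 5.25 and 9.8 in the knockout. Api5, an inhibitor of apoptosis named here after its values were seen, was not called and stood at 1.46 in saline, 11.8 and 1.39 in the wild type and 2.92 and 8.96 in the knockout.

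Of 27 genes for partners of PDCD10 and the CCM and STRIPAK complexes 3 were measured, none of them a GCKIII kinase or another CCM gene. Strn4, a striatin, rose from 0.62 to 17.55 and 17.58 in the wild type and to 20.3 and 12.11 in the knockout. Fgfr1op2, a STRIPAK component, rose from 1.03 to 15.44 and 4.64 and to 9.58 and 13.04. Strn3, a striatin named after its values were seen, was not called and stood at 1.2 in saline, 10.75 and 3.55 in the wild type and 1.43 and 5.49 in the knockout. The genotypes overlapped for all 3, with log2 differences of −0.15, 0.34 and −0.88 in that order. Golim4, a Golgi protein whose gene lies near Pdcd10 and the 1 measured of 5 genomic neighbours of the pair, rose in both comparisons with saline and differed by −0.25 (SE 0.85) between the genotypes.

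Of 14 published miR-21 targets linked to apoptosis 2 were measured. Against saline 1 rose in the wild type and 2 in the knockout (57.3% and 60.3% of all genes rose). Between the genotypes 0 were called, as over all genes (0%). Timp3, one of them, an inhibitor of metalloproteases, rose in both comparisons with saline and overlapped between the genotypes, at 31.99 and 20.06 in the wild type and 31.51 and 17.05 in the knockout. The genotypes did not overlap for 2 of the 18 genes, Birc5 among them, against 9.31% of all genes.

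**Figure D4:**
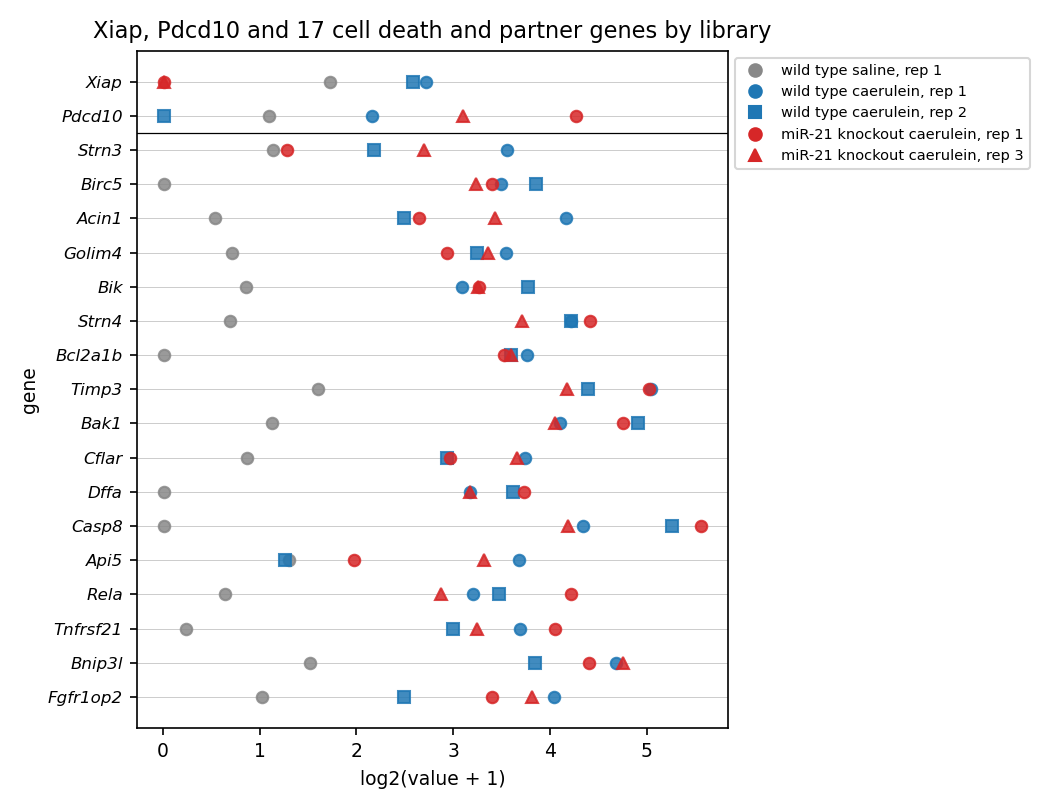
Each marker is log2(value + 1) of 1 gene in 1 library, with colour for the group and shape for the replicate; Xiap and Pdcd10 stand above the line and 17 of the cell death and partner genes below it, sorted by their knockout minus wild-type difference. Saline (grey) lies lowest or nearly so for the 17 genes, while Xiap has both knockout libraries below saline and Pdcd10 has wild-type replicate 2 below it.

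The genes with the profile most like each member were found by the root mean square difference of log2(value + 1), centred on each gene's mean, over the 5 libraries. For Xiap these were Map4k3 (0.72), Atg16l1 (0.88), Arhgef5, Lrrc43 (1.05) and Polr2a (1.08), where the median over all genes tested was 1.88. Map4k3, a kinase, was 3.2 in saline, 10.96 and 10.11 in wild-type caerulein and 3.15 and 3.57 in the knockout. Atg16l1, an autophagy protein, was 1.25, then 5.72 and 11.53, and 1.71 and 2.53. Both were thus higher in wild-type caerulein than in the other groups, but neither reached the lowest value in the knockout.

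For Pdcd10 the nearest genes included Fbxw11 (0.54), Siah1a (0.58), Hnrnph1 (0.70) and Zfp410 (0.73), against a median of 1.51. Siah1a, a ubiquitin ligase, was 0.63 in saline, 7.7 and 0.01 in wild-type caerulein and 10.29 and 8.43 in the knockout. Fbxw11, a substrate receptor of a ubiquitin ligase, was 1.63, then 5.4 and 0.68, and 15.06 and 4.15. In both genes wild-type replicate 2 lay below saline, as for Pdcd10. Xiap and Pdcd10 themselves differed by 2.55 on this measure, more than the median distance from either.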

How the data were processed

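Poly(A) RNA of whole pancreas was fragmented, reverse transcribed with random primers and sequenced on an Illumina instrument, per the labels' protocols. Bowtie 0.12.2 and genome build mm8 are named in the submitters' processing notes; how genes were quantified and values normalized is not stated there. The authors deposited 1 signal value per gene symbol and library (1457 genes and 1 blank row, left out), with the unit unstated. Low values showed no steps of whole reads, so no count test was used, depth is unknown and no counting interval is given. Values were analysed as log2(value + 1), so log2 differences understate changes of low genes. Limma 3.58.1 in R 4.3.3 fitted 1 mean per group over all 5 libraries with a trended, robust variance (2 residual degrees of freedom per gene, all from caerulein libraries), and p-values were adjusted by Benjamini-Hochberg over the 1429 genes tested in each of 3 comparisons. For the members and list genes the trend carried nearly all of the variance estimate, so their calls hardly measure the spread between their own libraries. The script was tested on simulated data. The members and lists were chosen with earlier results of these data known. Genes named are the members, called list genes (up to 6 per list), the 5 nearest profiles and genomic neighbours; others are said to be named after their values were seen, or are the extremes of a count. Some genes under this rule are not reported here but entered all fits and counts. Symbols were matched to RefSeq names for 1453 of 1457 genes; since mm8 differs from GRCm38, no gene coordinates are given. Alternatives were quantile normalization, median-ratio scaling, a pseudocount of 0.1, no filter, a minimum of 5, only the 2 groups compared, each caerulein library left out and, added later, no variance trend.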

Additional observations from a re-analysis of the deposited data

Results flagged for a closer look

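Xiap moved in opposite directions from saline in the genotypes: both wild-type caerulein libraries (5.6 and 5.01) lay above the saline value of 2.3 and both knockout libraries (0.01) lay below it. The difference between these effects equals the knockout minus wild-type difference, −2.64 on the log2 scale (SE 2.31), and it did not pass limma's test (adjusted p = 0.9997; 0.9268 to 1 over the alternatives run). The saline value is shared and comes from 1 library. The opposite directions also depend on its scale: with quantile normalization Xiap was lower than saline in both genotypes (−2.02 in the wild type and −3.95 in the knockout).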

How the results depend on the processing

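Over 11 alternatives each, 1 of them added after seeing the data, the knockout minus wild-type difference kept its direction for Xiap (−5.62 to −1.93) and Pdcd10 (1.53 to 4.25), and neither was called. The changes of filter, of groups fitted and of variance trend could not alter it and left it at −2.64 and 2.6. As the genotypes did not overlap, another pseudocount or a library left out could not reverse it. Quantile normalization keeps the order of genes within each library, and that order also separated the genotypes for both members. The median-ratio factors, 0.741 to 1.38, were too small to reverse either difference. The kept direction is therefore no test, and nothing is read from it. Quantile normalization, which forces the saline library to match the others, reversed Xiap in wild-type caerulein against saline to −2.02 and Pdcd10 in knockout against saline to −0.32; it took Pdcd10 in wild-type caerulein to −2.42, and called 12 and 11 genes, all lower than saline, where 819 (all higher) and 863 (861 higher) were called without it, and 0 of the list genes in both. With only the 2 groups compared, 440 genes and 8 list genes were called for wild-type caerulein against saline. In knockout against saline Pdcd10 at 2.59 was then called, as were 1053 of 1429 genes in all. Without a variance trend the counts were 480 genes and 8 list genes for the wild type and 10 list genes for the knockout. With a library left out, genes called ranged from 377 to 1080 (wild type against saline), 29 to 1028 (knockout against saline; lowest without knockout replicate 1) and 0 to 4 (knockout against wild type; 4 without wild-type replicate 1). List genes called ranged from 6 to 16 and from 0 to 16 against saline. With a library left out, Pdcd10 ranged from −1.08 to 1.06 in the wild type, positive without wild-type replicate 2, and from 2.01 to 3.17 in the knockout. A group left with 1 library is assumed to vary like the other caerulein group. No paired analysis was possible because the caerulein groups share only replicate number 1. Depth is unknown, so how far it limits the values at 0.01 cannot be given.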
